A study of Bos taurus with 4 samples.

Results

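The anaphase-promoting complex (APC/C) was followed through 10 of its subunit genes: ANAPC1, ANAPC4, ANAPC5, ANAPC10, ANAPC11, ANAPC13, CDC16, CDC23, CDC26 and CDC27. Its members were all array probes whose platform symbol is one of these names, which gave 16 of the 43794 bovine probes and 10 of 15216 named genes. CDC27 had 3 probes, ANAPC5, ANAPC10, ANAPC11 and ANAPC13 had 2 each, and the other 5 genes had 1. The samples were 4 pools of 200 denuded Holstein oocytes, all immature (germinal vesicle stage), taken from chilled slaughterhouse ovaries. From each pool, RNA depleted of ribosomal RNA was separated on poly(A)-binding beads into A150, described as tails of at least 150 nucleotides, and A-, described as tails of at most 50 nucleotides. A150 is the RNA eluted at 75 °C after a first elution at 42 °C, which was not analysed here, and A- is the RNA that the beads did not hold. The A150 and A- fractions of a pool shared 1 two-colour array, with A150 in the red dye Cy5 on arrays 1 and 2 and in the green dye Cy3 on arrays 3 and 4. No untreated, matured or otherwise contrasted oocytes enter the comparison, so the groups differ in bead fraction and, within an array, in dye.

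The APC/C is a ubiquitin ligase of many subunits that marks securin and cyclin B for destruction by the proteasome, which lets chromosomes separate and cells leave M phase. Work in mouse oocytes has shown that, with its activator FZR1, it also helps to hold oocytes at the germinal vesicle stage, while with CDC20 it acts at anaphase of meiosis I. In human and yeast complexes, a scaffold of ANAPC1, ANAPC4 and ANAPC5 carries an arch of repeat proteins (CDC16, CDC23, CDC27), and a catalytic module holds the RING subunit ANAPC11. In oocytes, a maternal mRNA can be kept silent with a short poly(A) tail and be translated once the tail is lengthened.

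Each value below is a log2 ratio of the normalized signal in A150 over that in A-, so a negative ratio is a lower relative signal in A150. Normalization centred each array, so these ratios compare a probe with the bulk of its array and measure neither an amount of RNA nor a tail length. Above background means here that the mean brightness of a spot was over the mean plus 2 SD of the 153 negative-control spots in the same channel. Between 9.96% and 60.6% of bovine probes were above background in A150 on the 4 arrays, the lowest share being that of array 2, and between 22.0% and 48.7% in A-. The ratios of 2 arrays correlated at r = 0.12 to 0.32 across the 19453 probes kept for testing, which cleared that level in A150, A- or both on 3 or more arrays. All 27 probes of 13 oocyte marker genes were kept, against 44.4% of all bovine probes. Of cumulus and granulosa markers 7 of 20 probes were kept, of blood markers 3 of 5 and of stroma markers 0 of 5. In A150 on single arrays, 15 to 27 oocyte marker probes and 2 to 10 cumulus and granulosa probes were above background, and in A- 11 to 25 and 4 to 7. Probes of FSHR, FOXL2 and AMH, which mark granulosa cells, were above background on no array. STAR had 3 kept probes, and CYP19A1, INHBA, PTX3 and SERPINE2 had 1 each. SERPINE2 had a ratio of 2.01 ± 0.31 (SD, n = 4 arrays). The part of other cells in the subunit ratios was not tested.

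Of the 16 subunit probes, 9 probes of 7 genes were kept, or 56.2%, where 44.4% of all bovine probes were. The 7 dim probes were the only probes of ANAPC4 and CDC16, both probes of ANAPC5 and 1 probe each of CDC27, ANAPC11 and ANAPC13, so 3 genes of the complex had no kept probe. No subunit probe passed the limma test at an adjusted p under 0.05 in either direction. The same test called 0.0617% of all tested probes toward A- and 0.00% toward A150, so a count of 0 among 9 is close to that background. At an unadjusted p under 0.05, limma placed 3 kept subunit probes toward A-, 1 of CDC27 and both of ANAPC10, and 0 toward A150, where 5.45% and 8.03% of all tested probes lay.

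The ratio was below 0 on all 4 arrays for 3 of the 16 subunit probes, where 9.32% of all bovine probes had that pattern. It was above 0 on all 4 arrays for none of the 16, where 10.1% of all bovine probes had that pattern. The mean ratio was above 0 for 10 of 16 probes, against 48.8% of all bovine probes. The median of the 16 mean ratios was 0.05 and that of all bovine probes was -0.01. The median subunit ratio was -0.02, 0.40, -0.64 and -0.39 on arrays 1 to 4, which averaged -0.16 ± 0.45 (SD, n = 4 arrays). The subunit probes thus had no single side as a group, and the spread among them was wide, with mean ratios from -2.88 to 1.23. These counts and medians include the 7 dim probes, whose ratios are largely of signals at background. Of the kept probes, 3 had a ratio below 0 on all 4 arrays and 6 had both signs. With so few arrays, the smallest two-sided p of an exact sign-flip permutation test of a single value is 0.125.

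**Figure D1:**
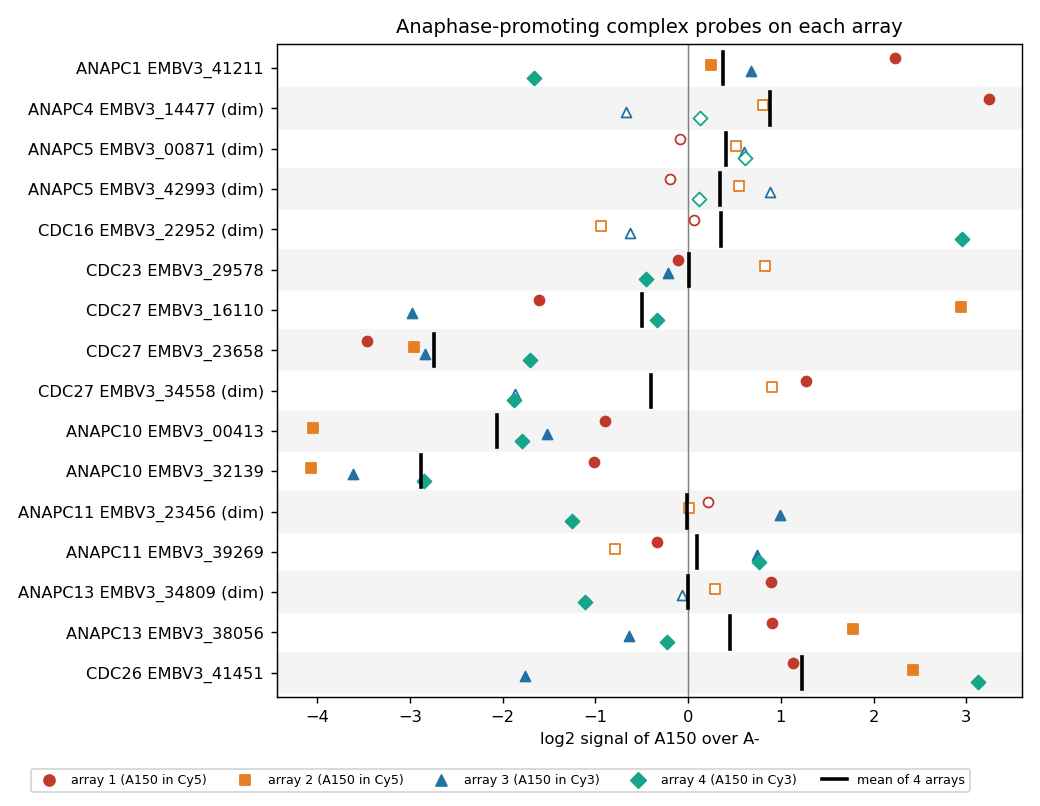
Log2 ratio of A150 over A- (x axis) of each of the 16 subunit probes (rows) on arrays 1 to 4, with a black bar for the mean. Filled symbols were above background in at least 1 fraction and open symbols in neither, and "dim" marks the 7 probes that were not kept. The CDC27 probe EMBV3_23658 and both ANAPC10 probes lie left of 0 on all 4 arrays.

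Within the arch of repeat proteins, CDC27 (also called APC3) binds the tails of the activators CDC20 and FZR1 and of ANAPC10. Its probe EMBV3_23658 had log2 signals in A150 of 11.24, 11.29, 11.33 and 11.42 on arrays 1 to 4, against 14.71, 14.24, 14.17 and 13.12 in A-. The A150 and A- signals did not overlap across arrays, and every spot was above background. That comparison leaves out the pairing by pool, and the share of all probes without overlap is not given here. The A150 signal was nearly level over the arrays and the A- signal of array 4 was the lowest. The ratios were -3.46, -2.95, -2.84 and -1.70, a mean of -2.74 ± 0.74 (SD, n = 4), which is a 6.67-fold higher signal in A-. Its adjusted p with limma was 0.0759, so the probe did not pass, and 143 of 19453 tested probes ranked before it. The adjusted p was 0.0135 when the test was limited to the 2030 probes with every A150 and A- spot above background, 0.0320 without normalization within arrays and 0.0225 on single channels without the pairing by pool. In these fits more probes passed in all. Calls toward A150 and A- were 116 and 128 in the first, 300 and 355 in the second, 77 and 124 in the third. As reported, they were 0 and 12. Under every other alternative, including those with 1 array left out, the limma adjusted p was not under 0.05. It ran from 0.0661 with spot medians to 0.240 without array 1. The ratio stayed between -3.08 and -2.02 over all the alternatives.

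The other CDC27 probes did not share that pattern. EMBV3_16110 had A150 signals of 10.65, 13.28, 9.42 and 12.41, against 12.25, 10.35, 12.40 and 12.74 in A-. Its ratios were -1.61, 2.94, -2.98 and -0.33, a mean of -0.50 ± 2.53 (SD, n = 4; limma adjusted p = 0.886). Array 2 was the one array on the A150 side, where the A- spot was not above background, and the mean was -1.64 without that array and 0.33 without array 3. The dim probe EMBV3_34558 had ratios of 1.27, 0.90, -1.87 and -1.88, which averaged -0.40 ± 1.72 (0.10 without array 3 and without array 4). Its 2 positive values were those of the arrays with A150 in Cy5, and its 2 negative values those with A150 in Cy3. The ratio of EMBV3_23658 minus that of EMBV3_16110 averaged -2.24 ± 2.58 (SD, n = 4) and was below 0 on 3 of 4 arrays. Its exact sign-flip permutation p was 0.250, or 0.583 adjusted over the 7 pairs of probes of a gene. CDC27 therefore had 1 probe with a low ratio on every array, 1 kept probe without, and 1 dim probe. The dim probe had both fractions above background on array 4 alone, where its ratio was -1.88. Which part of the transcript each probe matches is not given.

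ANAPC10, known from yeast as Doc1, helps the complex to hold the destruction box of its substrates. Its probe EMBV3_32139 had A150 signals of 10.62, 9.85, 10.27 and 10.88, against 11.63, 13.92, 13.87 and 13.72 in A-. The fractions did not overlap across arrays, again without a share for all probes, and array 1 had the smallest gap. The ratios of -1.01, -4.07, -3.61 and -2.85 averaged -2.88 ± 1.35 (SD, n = 4; limma adjusted p = 0.120). The A150 spot was not above background on array 2, so the ratio of that array rests on a dim A150 signal. The mean was -2.49 without that array and -3.51 without array 1. Without normalization within arrays the ratio was -2.53 and the adjusted p was 0.0351.

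The second ANAPC10 probe, EMBV3_00413, stood on the same side. Its A150 signals were 9.10, 10.10, 10.56 and 9.58, against 9.99, 14.15, 12.08 and 11.37 in A-. These overlap across arrays, since the A- signal of array 1 lay below the A150 signals of arrays 2 and 3. The ratios were -0.90, -4.04, -1.52 and -1.79, a mean of -2.06 ± 1.37 (SD, n = 4; limma adjusted p = 0.216). The A150 spot was again not above background on array 2, and the mean was -1.40 without that array. The probes ranked the arrays differently except that array 1 was nearest to 0 and array 2 lowest in both. Their ratios differed by -0.82 ± 0.97 (EMBV3_32139 minus EMBV3_00413, SD, n = 4; exact sign-flip permutation p = 0.125, the smallest that 4 arrays allow; 0.583 adjusted). The low ratios were found in both dye orientations: with A150 in Cy5 and in Cy3 the means were -2.54 and -3.23 for EMBV3_32139, -2.47 and -1.65 for EMBV3_00413, and -3.21 and -2.27 for CDC27 EMBV3_23658. ANAPC10 was the one subunit gene whose probes all had a ratio below 0 on every array.

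**Figure D2:**
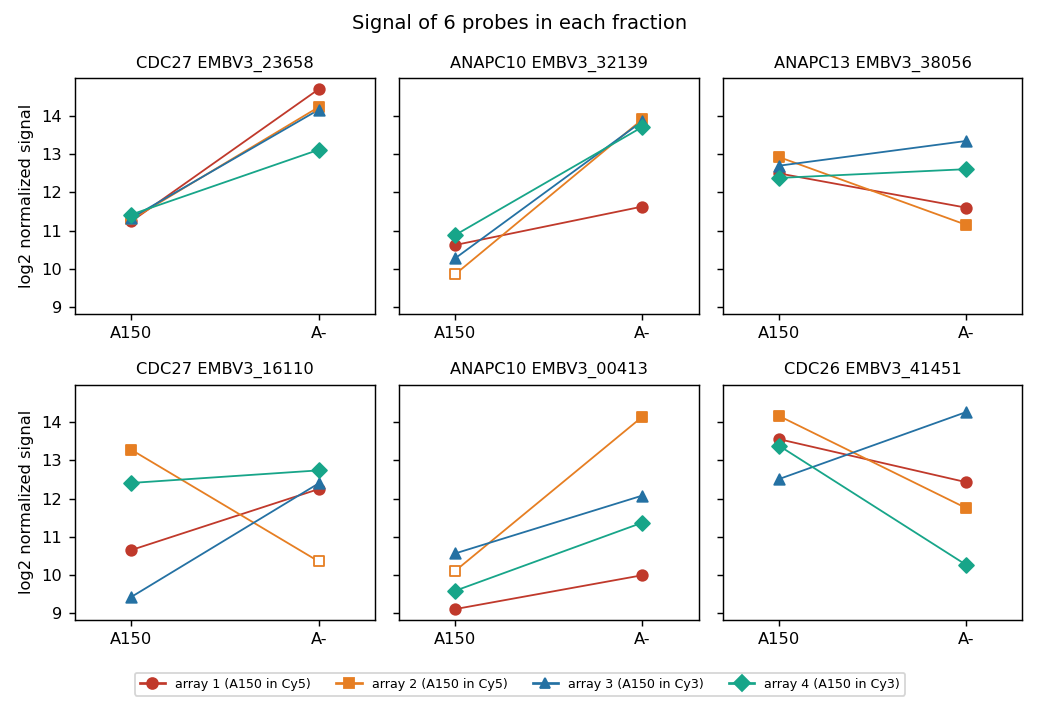
Log2 normalized signal (y axis) in A150 and A- of 6 probes, with a line for each array. Filled symbols were above background in that fraction. The CDC27 probe EMBV3_23658 has A150 signals of 11.24 to 11.42 below A- signals of 13.12 to 14.71, and CDC26 has lines that slope in both directions.

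Of the scaffold subunits, ANAPC1 was measured and ANAPC4 and ANAPC5 were dim. ANAPC1, the largest subunit, had A150 signals of 11.68, 9.95, 8.90 and 8.72, against 9.45, 9.70, 8.22 and 10.38 in A-. Its ratios of 2.23, 0.25, 0.68 and -1.66 averaged 0.38 ± 1.60 (SD, n = 4; limma adjusted p = 0.865), and the fractions overlapped. It was above background on 3 arrays in A150 and on 3 in A-. The mean ratio was -0.24 without array 1 and 1.06 without array 4. ANAPC4 was above background in A150 on array 1 and on no other array, and in A- on none, with ratios of 3.24, 0.81, -0.67 and 0.13. The ANAPC4 ratios of arrays 2 to 4 are of signals at background, so its side was not measured beyond array 1. Both ANAPC5 probes were above background in neither fraction on any array, so no level of ANAPC5 was measured. Their ratios, from -0.09 to 0.61 for EMBV3_00871 and from -0.20 to 0.88 for EMBV3_42993, are ratios of signals at background.

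The remaining arch subunits were dim or near 0. CDC16, which pairs with CDC26 in the arch, was above background in A150 on array 4 alone and in A- on no array. Its ratios were 0.06, -0.94, -0.63 and 2.95, and their mean of 0.36 was -0.50 without array 4. CDC23, which takes part in binding the activators, had A150 signals of 8.70, 9.40, 9.70 and 8.56, against 8.81, 8.57, 9.92 and 9.01 in A-. Its ratios of -0.11, 0.83, -0.22 and -0.45 averaged 0.01 ± 0.56 (SD, n = 4; limma adjusted p = 0.992), with the fractions overlapping. Each fraction was above background on 2 arrays.

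ANAPC11, the RING subunit that recruits the ubiquitin-conjugating enzyme, was also close to background. Its probe EMBV3_39269 had A150 signals of 8.58, 7.95, 8.95 and 9.57, against 8.92, 8.74, 8.21 and 8.80 in A-. The ratios were -0.34, -0.79, 0.74 and 0.77, a mean of 0.10 ± 0.78 (SD, n = 4; limma adjusted p = 0.942). The dim probe EMBV3_23456 had ratios of 0.21, 0.01, 0.99 and -1.25 and a mean of -0.01 ± 0.93. Neither probe had a side that the arrays shared.

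The small subunits ANAPC13 and CDC26 help to stabilise the arch, and each had a probe with every A150 and A- spot above background. ANAPC13 by probe EMBV3_38056 had A150 signals of 12.50, 12.93, 12.70 and 12.38, against 11.60, 11.15, 13.35 and 12.61 in A-. Its ratios were 0.91, 1.78, -0.64 and -0.23, a mean of 0.45 ± 1.10 (SD, n = 4; limma adjusted p = 0.760). The mean was 0.01 without array 2 and 1.15 with median centring in place of loess. The sign followed the dye, with a mean of 1.34 over the arrays with A150 in Cy5 and of -0.44 over those with A150 in Cy3. The dim ANAPC13 probe EMBV3_34809 split by dye in the same way, with 0.89 and 0.29 in Cy5 and -0.06 and -1.11 in Cy3. Such a split was found in 4 of 16 subunit probes, the other 2 being a CDC27 and an ANAPC11 probe, where 17.2% of all bovine probes had it. The part of the dyes in these ratios was not tested.

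CDC26 by probe EMBV3_41451 had the highest mean ratio of the 16 probes. Its A150 signals were 13.56, 14.17, 12.51 and 13.39, against 12.43, 11.75, 14.27 and 10.26 in A-. The ratios of 1.13, 2.42, -1.76 and 3.13 averaged 1.23 ± 2.16 (SD, n = 4; limma adjusted p = 0.639). Array 3 stood on the A- side and the fractions overlapped. The mean was 2.23 without array 3 and 0.60 without array 4, and it ranged from 0.60 to 2.23 over the alternatives, all above 0.

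**Figure D3:**
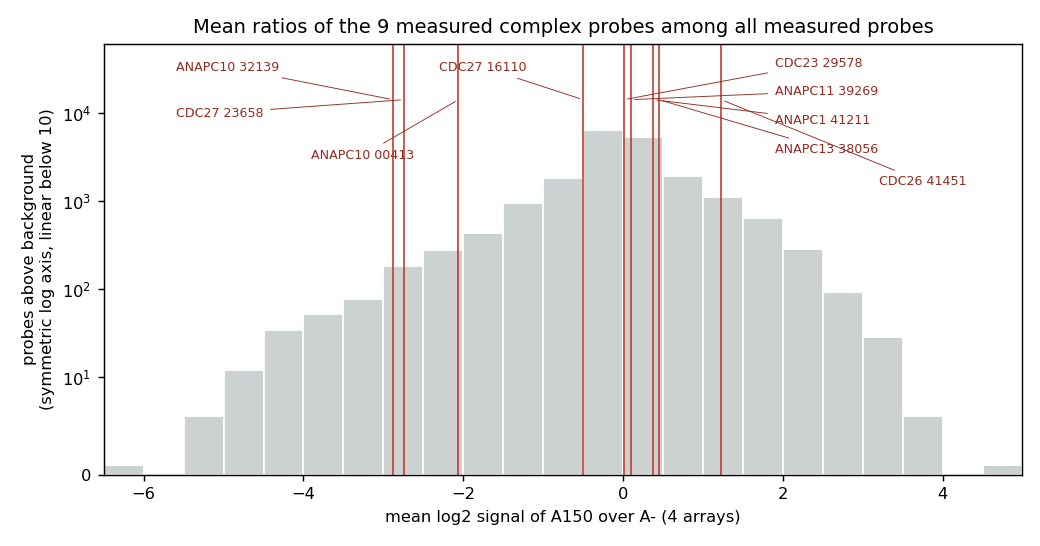
Number of the 19453 kept probes (y axis, symmetric log) by mean log2 ratio of A150 over A- (x axis), with red lines at the 9 kept subunit probes. ANAPC10 EMBV3_32139 (-2.88), CDC27 EMBV3_23658 (-2.74) and ANAPC10 EMBV3_00413 (-2.06) lie in the left tail, and the other 6 lie between -0.50 and 1.23.

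In the distribution of all kept probes, the quartiles of the mean ratios were -0.37 and 0.37, and the percentiles 5 and 95 were -1.56 and 1.54. The ANAPC10 probes stood at the 1.07 and 3.09 percentiles and CDC27 EMBV3_23658 at the 1.36 percentile. CDC26 stood at the 92.1 percentile and the remaining 5 kept probes between the 19.8 and 78.0 percentiles. The genes whose 4 ratios were nearest to those of CDC27 EMBV3_23658, by Euclidean distance among 10023 named probes outside the complex, were MARCHF7 (distance 0.59), NIP7 (0.75) and GFPT1 (1.05). Their mean ratios were -2.68 ± 0.60, -2.89 ± 0.96 and -2.68 ± 0.68 (SD, n = 4).

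Genes listed as working with the complex were then set beside the subunits, 30 genes with 52 probes, of which 42 were kept. None passed at an adjusted p under 0.05 in limma, and 7 of the 42 toward A150 and 3 toward A- had an unadjusted p under 0.05, where 8.03% and 5.45% of all tested probes did. Of the other subunits, ANAPC7, a further repeat protein of the arch, stood at 0.82 ± 0.94 (SD, n = 4; limma adjusted p = 0.505), with ratios of 1.66, 0.50, -0.37 and 1.47. The small subunit ANAPC16 was above background on no array, and ANAPC2 and ANAPC15 had no probe by these symbols.

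Among activators and ubiquitin-conjugating enzymes, 4 of 9 probes were kept and 1, toward A150, had an unadjusted p under 0.05. UBE2C, which adds the first ubiquitins to APC/C substrates, had ratios of 4.73, 1.14, 2.17 and 2.24, a mean of 2.57 ± 1.52 (SD, n = 4; limma adjusted p = 0.174). In A- it cleared the background level on 1 array, so the size is uncertain, and the mean was 1.85 without array 1. CDC20, the activator at anaphase, had ratios of 1.97, 3.74, -2.49 and 1.46 and a mean of 1.17 ± 2.63 (SD, n = 4; limma adjusted p = 0.717). It too was above background in A- on a single array, and the mean was 0.31 without array 2 and 2.39 without array 3. FZR1, the activator of the arrested oocyte, was above background in A150 on 1 array and in A- on none, so its side was not measured. UBE2D1 stood at 1.27 ± 2.21, with 0.59 without array 3 and 2.19 without array 1. UBE2S, which lengthens ubiquitin chains, stood at -0.17 ± 0.91 by its 1 kept probe of 5. The UBE2D1 probe and this UBE2S probe were each above background on 2 arrays in A150 and on 2 in A-.

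Among inhibitors and checkpoint genes, 16 of 17 probes were kept and none had an unadjusted p under 0.05 in either direction. FBXO43 (EMI2), which restrains the APC/C in metaphase II eggs, had ratios of -3.00, -0.12, -1.56 and 0.12 and a mean of -1.14 ± 1.44 (SD, n = 4; limma adjusted p = 0.511). Its mean was -0.52 without array 1. In A150 the FBXO43 probe was above background on 2 of 4 arrays, so the size is uncertain. The checkpoint protein gene BUB1B had ratios of 2.64, 1.42, 0.23 and 0.16 (mean 1.11 ± 1.17, limma adjusted p = 0.434), and 0.60 without array 1. TRIP13, which takes apart checkpoint complexes, had ratios of 1.83, 3.92, -0.01 and 0.08 (mean 1.45 ± 1.85, limma adjusted p = 0.499), and 0.63 without array 2. In both genes the arrays with A150 in Cy5 were high and those with A150 in Cy3 were near 0. In A-, BUB1B was above background on 2 arrays and TRIP13 on 1. USP44, a deubiquitinase of the checkpoint, had ratios of -0.22, -0.01, 0.62 and -4.50, a mean of -1.02 ± 2.34 that was 0.13 without array 4. It was above background on 2 arrays in A150 and on 3 in A-.

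Among substrates and separase, 21 of 24 probes were kept, and 6 of the 21 on the A150 side and 3 on the A- side had an unadjusted p under 0.05, beside the same 8.03% and 5.45% of all tested probes. CCNB2, a cyclin B that the APC/C marks for destruction, had ratios of 3.16, 2.45, 2.76 and 2.66, a mean of 2.76 ± 0.30 (SD, n = 4; limma adjusted p = 0.0555). Both CCNB2 fractions were above background on the same 3 of 4 arrays, so the ratio of the remaining array is of signals at background. PTTG1, the gene of securin, stood at 1.52 ± 0.42 by EMBV3_22436 (adjusted p = 0.107) and at 1.09 ± 0.54 by EMBV3_20514 (adjusted p = 0.218). SKP2, the F-box protein that the APC/C with FZR1 targets, had ratios of -2.09, -2.56, -1.95 and -3.43 by EMBV3_26665. The mean was -2.51 ± 0.67 (limma adjusted p = 0.0769). In A150 this probe was above background on 2 of 4 arrays, so the size is uncertain. The other 3 SKP2 probes had means of -1.58, -1.42 and 0.10. BTG4, 1 of the 3 probes counted on the A- side, stood at -1.38 ± 0.46 (limma adjusted p = 0.128). It is a deadenylase adaptor that was listed here and is not known as a substrate. CCNB1, the gene of cyclin B1, had ratios of -0.68, 2.39, -0.33 and -0.87, a mean of 0.13 ± 1.52 (adjusted p = 0.956), and the mean was -0.63 without array 2. Whether these lists differ from the subunits was not tested.

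**Figure D4:**
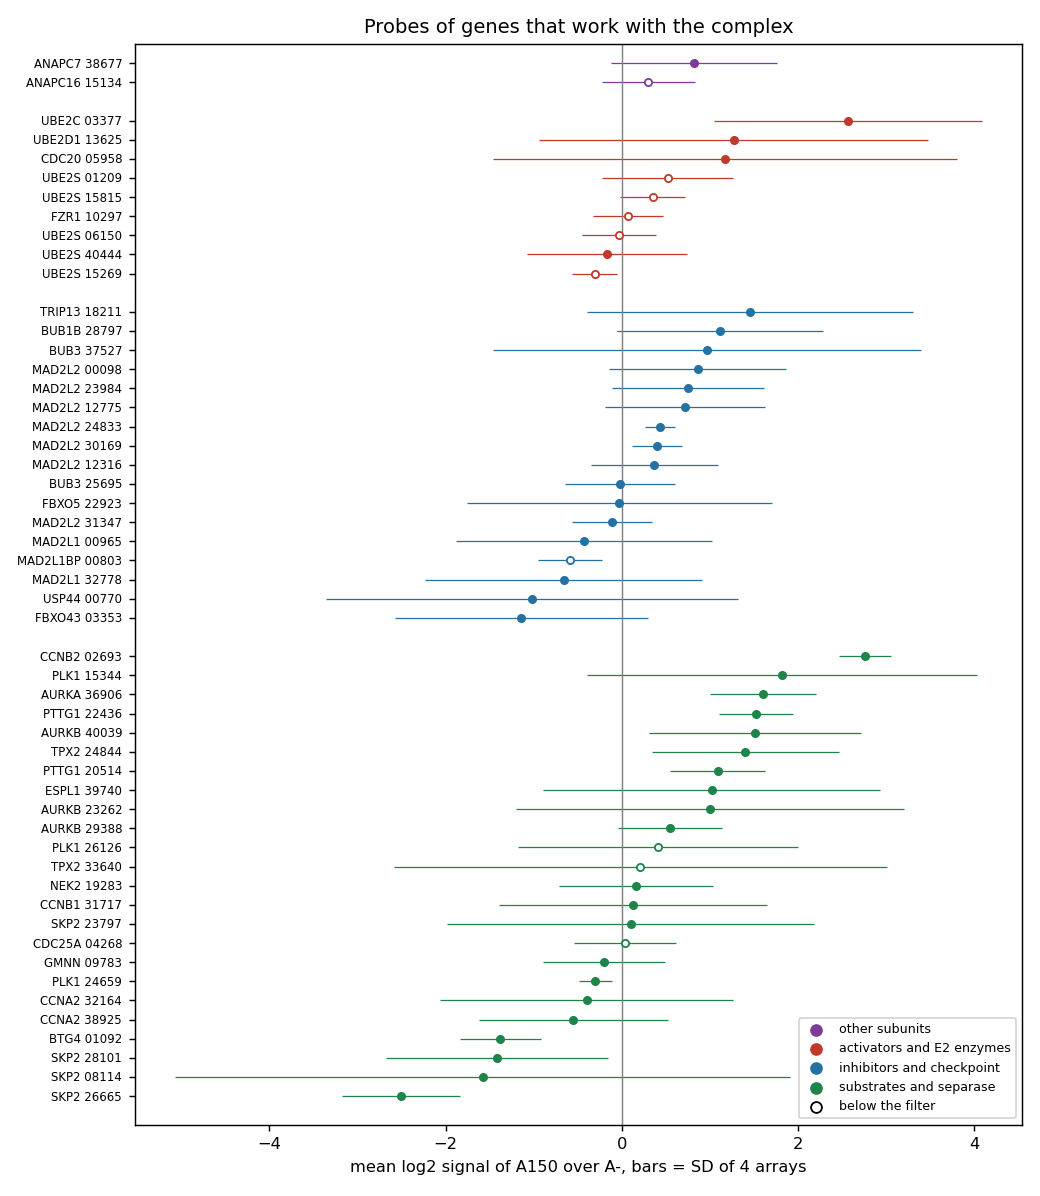
Mean log2 ratio of A150 over A- (x axis) of 52 probes of genes listed as working with the complex, with bars for the SD of 4 arrays. Probes are coloured by list and labelled with the gene and the last digits of the probe name. BTG4 is among them and is not known as a substrate. Open symbols were not kept. CCNB2 has the highest mean, 2.76, and SKP2 EMBV3_26665 the lowest, -2.51.

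The subunit ratios were recomputed under 17 alternatives in background correction, normalization, filter, fit and arrays used. The ratios of 4 of the 9 kept subunit probes changed sign at least once, those of ANAPC1, CDC23, CDC27 EMBV3_16110 and ANAPC11, and the other 5 kept their side in every fit that held them.

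**Figure D5:**
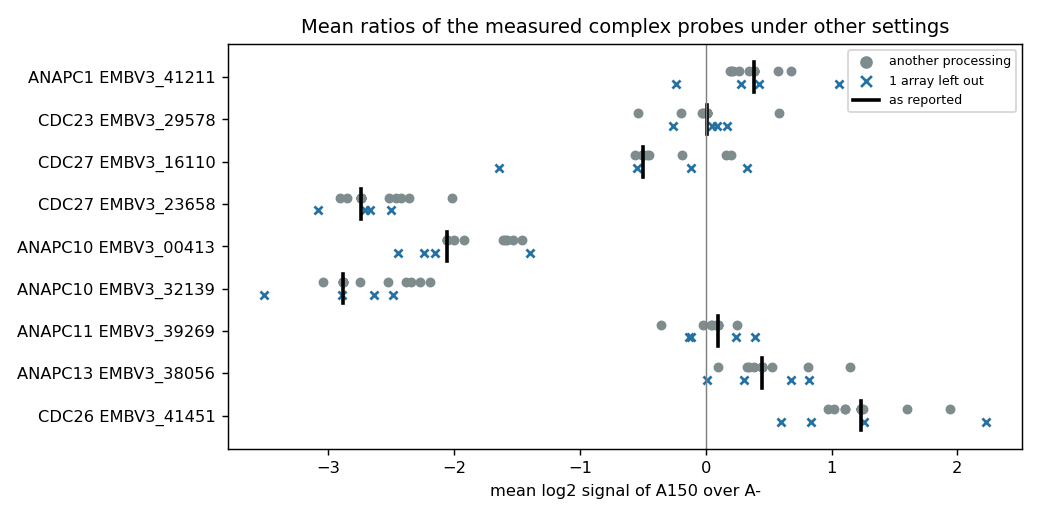
Mean log2 ratio of A150 over A- (x axis) of the 9 kept subunit probes as reported (black bar), under other processing (grey points) and with 1 array left out (blue crosses). CDC27 EMBV3_23658 and both ANAPC10 probes stay below 0 in every fit that held them, and CDC26 stays above 0. The ratios of ANAPC1, CDC23, CDC27 EMBV3_16110 and ANAPC11 take both signs.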

How the data were processed

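The deposited file of each array holds spot intensity values in the Cy3 and Cy5 scans, with local background and no subtraction, per the file headers. Per the labels' protocols, WT-Ovation One-Direct amplification and Universal Linkage System labelling came first; both can favour some transcripts. The 22 unnamed rows of each file were dropped. The log2 ratios of the authors' deposited table correlated at 0.996 to 0.999 with loess log2 ratios of A150 over A- made without background correction, with slopes of 0.837 to 1.22 and medians of -0.01 to 0.02, so they run as A150 over A-; the reason for the slopes is unknown.

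Spot means were corrected with normexp (offset 50) and normalized by loess within arrays, control spots at weight 0, in limma 3.58.1 (R 4.3.3), and arrays 3 and 4 were turned. Log2 ratios were tested against 0 with lmFit and eBayes (3 residual degrees of freedom) and Benjamini-Hochberg adjustment over 19453 kept probes. The pairing of fractions by pool is part of the ratio. Single-channel signals came after loess and Aquantile. The series design text gives separate pools, so p-values reflect pool and array spread jointly; the number of arrays limits precision.

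Symbols came from the platform annotation (21790 probes with 1, 0 with several, 22004 without); 1524 were updated through RefSeq synonyms (ARS-UCD2.0). No coordinates are printed, since the sources used here name no build for the array. Members, lists and tests were chosen with earlier results of these data known. Every member probe is named; of the partner lists, the 2 kept probes of smallest p in each direction, and CDC20, FZR1, FBXO43, UBE2C and CCNB1, besides genes named for being dim and further probes of a named gene. FSHR, FOXL2, AMH, STAR, CYP19A1, INHBA, PTX3, SERPINE2 and ANAPC16 were named after their values were seen.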

Additional observations from a re-analysis of the deposited data

Results flagged for a closer look

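In 5 of 31 subunit and named partner probes, 1 array lay far from the other 3 by Dixon's test; chance flags about 1 in 20, and 5.80% of all kept probes were over the limit. They were the ANAPC5 probe EMBV3_00871 (-0.09 on array 1, dim on all arrays), USP44 (-4.50 on array 4), PTTG1 EMBV3_22436 (2.14 on array 2), FZR1 (-0.53 on array 2, below background there) and CCNB1 (2.39 on array 2). Array 2 was the far array in 3 of these.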

How the results depend on the processing

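Over 17 alternatives, the CDC27 probe EMBV3_23658 and both ANAPC10 probes kept a ratio below 0 in every fit that held them. The mean ratios of the other subunits are unsettled where they lie near 0, and array 2 had the fewest A150 spots above background. No subunit probe passed toward A150 under any alternative. Without normalization within arrays, where the median of all bovine probes moved to -0.35, 2 subunit probes passed toward A- (CDC27 EMBV3_23658 and ANAPC10 EMBV3_32139), 2 partner probes toward A150 (UBE2C and CCNB2), 1 toward A- (SKP2), and 6 of 16 subunit probes had a positive mean; all probes gave 300 toward A150 and 355 toward A-. With the test limited to probes whose A150 and A- spots were all above background, 1 subunit probe passed toward A-, with 116 and 128 calls among 2030 probes. Without the pairing of fractions by pool (no replicate block, single channels), 1 subunit probe passed toward A-, with 77 and 124 calls among all probes. Spot medians gave 2 calls toward A150 and 30 toward A-. The 12 calls toward A- among all probes were 0 without background correction, with local background subtracted, with median centring, scaling between arrays, no filter, a dye term, the authors' deposited log2 ratios, a variance trend or 1 probe per gene, and 0 with any array left out. With 1 probe per gene, 5 of the 7 subunit genes with a kept probe had a positive mean. The median of the 16 mean ratios ran from -0.27 to 0.25 over the alternatives.

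Among the kept subunit and named partner probes, 7 ratios changed sign. CDC23 was -0.02 without background correction, -0.03 with local background subtracted, -0.20 with median centring, -0.54 without normalization, -0.01 with the authors' deposited log2 ratios and -0.26 without array 2 (-0.26 to 0.17 with 1 array left out). CDC27 EMBV3_16110 was 0.20 with spot medians, 0.16 with median centring and 0.33 without array 3 (-1.64 to 0.33 with 1 array left out). ANAPC11 EMBV3_39269 was -0.02 with median centring, -0.36 without normalization, and -0.12 and -0.13 without arrays 3 and 4 (-0.13 to 0.39). ANAPC1 was -0.24 without array 1 (-0.24 to 1.06). UBE2S was 0.04 with spot medians, and 0.01 and 0.16 without arrays 1 and 2 (-0.44 to 0.16). CCNB1 was -0.63 without array 2 (-0.63 to 0.46) and USP44 0.13 without array 4 (-1.57 to 0.13). Among dim probes, which had no test, CDC16 was -0.50 without array 4, CDC27 EMBV3_34558 0.10 without array 3 and without array 4, and ANAPC5 EMBV3_00871 -0.04 and FZR1 -0.32 without normalization; ANAPC11 EMBV3_23456 and ANAPC13 EMBV3_34809, near 0 as reported, took both signs. The cause was not tested for any of these.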
